A study of Mus musculus with 8 samples.

Results

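The genes described here encode the enzymes that split glucose into lactate and the classic targets of the hypoxia-inducible factors, HIFs. They were taken as a list of 40 gene symbols. The rule that listed them used known roles and no measured value, but earlier results of these data were known when they were chosen. Of these, 37 had a probe set assigned to them alone, out of 19938 such genes on the array. A total of 35 were bright enough to be tested, among 13205 genes tested in all. Gpi1, Gapdh and Eno1 were not analysed here, and the acid-handling carbonic anhydrases Car9 and Car12 lay below the brightness filter, so only their values are given.

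Cells in air carry a set of prolyl hydroxylases that mark the HIF alpha subunits for destruction, and the hydroxylases need oxygen to work. When oxygen runs short the alpha subunits persist, pair with Arnt and bind short DNA motifs containing ACGTG or GCGTG near their targets. Those targets include the glucose transporter Slc2a1, most glycolytic enzymes, Pdk1, which keeps pyruvate out of mitochondria, and signals such as Vegfa. Bone marrow is a low-oxygen tissue, and bone-forming cells are known to make much of their ATP by glycolysis.

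The cells were bone marrow stromal cells, the adherent, scaffold-grown precursors of bone, from femurs and tibiae of C57BL/6 mice aged 6 to 8 weeks, with no engineered allele named. They grew on Skelite, a porous calcium phosphate scaffold, in osteoinductive or growth medium. Each medium had 1 array for microgravity in flight, 1 for a 1g centrifuge in flight, 1 for ground incubation units and 1 for laboratory 24-well dishes. Both flight conditions ran in automated hardware inside the KUBIK incubator, whereas ground units were handled manually, so flight and unit differ in more than gravity. The 4 flight arrays were set against the 2 unit arrays and the 2 dish arrays with medium as a covariate. That fit treats microgravity and centrifuge as repeats of flight, although their gravity differs. The labels name no separate animals or cultures behind the arrays, and no condition had a repeat array in the same medium. In this fit the spread behind the p-values comes from differences between the flight conditions and from platform differences that vary with medium. It is not spread among repeat cultures, and technical spread cannot be told apart within it. Values are log2 intensities of probe sets, so levels of different genes are not compared. A gene is said to have risen or fallen where limma's Benjamini-Hochberg adjusted p over all 13205 genes was under 0.05.

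All 16 stromal markers lay above the brightness filter. So did 15 of 16 skeletal muscle, 10 of 13 neuron, 8 of 10 endothelial and 8 of 10 lung epithelial markers. Macrophage markers passed it in 6 of 10 cases and erythroid ones in 1 of 4, so passing does not identify a cell type. The stromal markers summed to 38385.2 to 47028.1 on flight arrays, 49579.1 to 51643 on unit arrays and 47703.3 to 52622.7 on dish arrays. The flight arrays also carried higher signal of neuron, skeletal muscle, endothelial and lung epithelial marker genes. Macrophage marker sums overlapped, with 1694.33 to 2469.5 on flight arrays and 1792.46 to 1988.33 on unit arrays. The 4 erythroid markers summed to 576.434 to 748.229 on flight arrays and 546.016 to 560.949 on unit arrays. In flight against the units, 0 of 6 tested macrophage and 0 of 1 tested erythroid markers rose or fell. The 13 neuron markers summed to 10059.6 to 15190.9 on flight arrays, against 3135.14 to 3734.51 on unit arrays and 3067.78 to 4136.47 on dish arrays. For 16 skeletal muscle markers the sums were 7316.05 to 9779.75 on flight arrays, 3601.71 to 3648.65 on unit arrays and 3486.19 to 3487.02 on dish arrays. Lung epithelial markers, 10 in number, summed to 12990.3 on the osteoinductive microgravity array and to 2446.4 to 3623.74 on the other flight arrays, against 1640.45 to 1687.51 on unit arrays and 1519.42 to 1522.52 on dish arrays. Of the tested markers, 10 of 10 neuron, 11 of 15 muscle, 4 of 8 endothelial and 2 of 8 lung genes rose in flight against the units, while 6 of 16 stromal markers fell and 1 rose. Of all tested genes 8.63% rose and 9.78% fell in that contrast. The part of these tissues in any result that follows was not tested. In bulk RNA, fewer cells of a type and less RNA per cell cannot be told apart.

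Promoter windows were searched for the HIF core letters ACGTG. The windows below are the 250 bases before the annotated start in RefSeq (GRCm38.p6), written 5′ to 3′ on the gene's own strand. Capitals mark ACGTG or its reverse complement CACGT, and CACGTG reads as a match on both strands. Bnip3, Egln1 and Egln3 are shown because they rose in osteoinductive medium and were lower in the units than in the dishes, Hk2 because it showed the deepest fall in flight against the units, and Aldoc because it rose in flight while most of the others did not. The Bnip3 window lies at chr7:138909507-138909756 on the minus strand, that of Egln1 at chr8:124949255-124949504 (minus), of Egln3 at chr12:54203875-54204124 (minus), of Hk2 at chr6:82774455-82774704 (minus) and of Aldoc at chr11:78322823-78323072 (plus).
Bnip3: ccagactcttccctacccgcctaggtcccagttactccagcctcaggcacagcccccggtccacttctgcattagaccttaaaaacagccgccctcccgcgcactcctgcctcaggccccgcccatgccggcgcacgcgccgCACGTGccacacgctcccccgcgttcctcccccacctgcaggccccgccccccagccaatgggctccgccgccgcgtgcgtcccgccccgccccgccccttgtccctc
Egln1: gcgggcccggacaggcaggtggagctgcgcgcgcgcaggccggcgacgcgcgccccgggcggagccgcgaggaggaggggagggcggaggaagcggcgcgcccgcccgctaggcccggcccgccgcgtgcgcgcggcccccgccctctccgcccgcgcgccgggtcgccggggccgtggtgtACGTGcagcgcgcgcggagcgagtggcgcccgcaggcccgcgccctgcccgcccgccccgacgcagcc
Egln3: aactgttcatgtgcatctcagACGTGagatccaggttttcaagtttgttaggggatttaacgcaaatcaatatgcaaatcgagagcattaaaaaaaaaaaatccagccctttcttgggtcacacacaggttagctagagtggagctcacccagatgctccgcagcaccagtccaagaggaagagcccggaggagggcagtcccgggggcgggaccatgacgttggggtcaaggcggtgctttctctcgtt
Hk2: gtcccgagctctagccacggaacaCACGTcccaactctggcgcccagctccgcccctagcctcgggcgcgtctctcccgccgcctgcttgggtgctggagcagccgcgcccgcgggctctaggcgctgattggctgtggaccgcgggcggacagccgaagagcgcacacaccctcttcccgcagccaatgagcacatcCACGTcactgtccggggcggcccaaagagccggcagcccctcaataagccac
Aldoc: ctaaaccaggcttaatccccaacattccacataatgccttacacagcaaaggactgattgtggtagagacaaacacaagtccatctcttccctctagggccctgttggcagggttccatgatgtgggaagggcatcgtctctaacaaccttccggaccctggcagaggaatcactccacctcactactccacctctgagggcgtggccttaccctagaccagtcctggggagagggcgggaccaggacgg
In Bnip3 the palindrome starts 108 bases before the start site, and in Egln1 the motif starts 68 bases before it. Egln3 holds the motif at 229 bases, and Hk2 holds it at 226 and at 52 bases. The printed Aldoc window has no ACGTG and 1 GCGTG. Of the listed genes, 35 had at least 1 such window in the RefSeq table, and 22 of these 35 genes (62.9%) held ACGTG on either strand, against 18.5% of 27025 genes with a window and 24.2% of 10468 such genes that were tested on the arrays. By windows, 48.1% of 54 held it, against 16.6% of 32851 windows of all genes and 20.8% of 13281 windows of tested genes. GCGTG was in 50% of the 54 windows, against 28.2% of all windows and 42.9% of the windows of tested genes. The list was made of classic HIF targets and glycolytic enzymes, so a higher share of ACGTG is no independent evidence. The listed genes also had more windows per gene than all genes, which raises a share counted by genes. A match is a description of the letters and no proof of a bound site.

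Over the 8 arrays the genes spread along a line from the growth-medium microgravity array, the lowest, to the osteoinductive dish, the highest. Expressed as the deviation of each gene from its own mean over the arrays, the median of the 35 tested genes was 0.01 in microgravity, 0.05 on the centrifuge, 0.15 in the unit and 0.42 in the dish in osteoinductive medium. In growth medium the medians were -0.34 in microgravity, -0.12 on the centrifuge, -0.09 in the unit and 0.03 in the dish. The median over all tested genes stayed between -0.07 and 0.06 on every array. The osteoinductive dish held the highest value of 24 of the 35 genes, against 18.2% of all tested genes, and the growth-medium microgravity array the lowest value of 22 of the 35, against 27.1% of all tested genes. The map of deviations shows this gradient and the few genes that run against it.

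**Figure D1:**
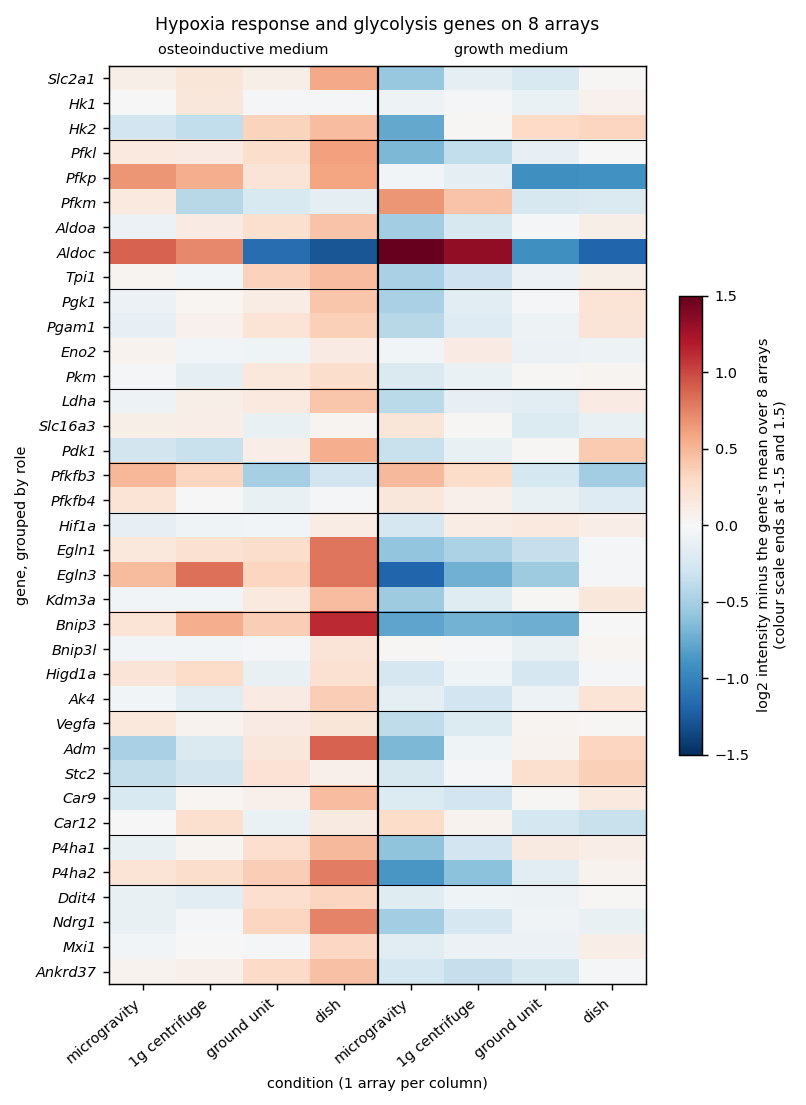
Deviation of each gene's log2 intensity from its mean over 8 arrays (colour), with genes in rows grouped by role and 1 array per column, osteoinductive medium on the left. Most rows are reddest in the osteoinductive dish and bluest in growth-medium microgravity, while Aldoc and Pfkfb3 are redder on the flight arrays.

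The comparison of flight with the ground units asks how cells in the automated flight hardware differed from cells in manual ground hardware. Aldoc, Pfkfb3 and Pfkp rose, and Hk2, Stc2, P4ha1 and Tpi1 fell, with 28 of the 35 passing in neither direction. The share called, 3 higher and 4 lower, was near that of all tested genes, 8.63% higher and 9.78% lower. For 5 of the 35 every flight array lay above both unit arrays and for 7 every flight array lay below them, against 15.3% and 19.9% of all tested genes. The median difference was -0.15 over the 35 genes, against -0.06 over all genes tested, and 25 of the 35 differences were negative. Under quantile normalization the median was -0.04 and 20 differences were negative. In what follows, flight values are given for osteoinductive microgravity, osteoinductive centrifuge, growth microgravity and growth centrifuge in that order, and unit and dish values for osteoinductive and then growth medium.

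Among the genes of glucose uptake and entry, Hk2, the inducible hexokinase that phosphorylates glucose, had values of 9.91, 9.82, 9.43 and 10.21 on the flight arrays and 10.54 and 10.50 on the unit arrays. Every flight array lay below both unit arrays. Hk2 was thus 1.59-fold lower in flight (log2 difference -0.67, SE 0.17, adjusted p = 0.0177). Hk1, the constitutive hexokinase, and Slc2a1, a widespread glucose transporter, had differences of 0.08 and -0.04 and did not pass. The dimmer Hk1 probe set gave 0.25.

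In the upper steps of glycolysis, which turn glucose phosphate into triose phosphates, Aldoc stood apart. Aldoc encodes the aldolase typical of brain. It measured 9.51, 9.35, 10.23 and 9.96 on the flight arrays and 7.48 and 7.70 on the unit arrays, with a gap of over a log2 unit between the highest unit and the lowest flight value. Flight was 4.50-fold higher (2.17, SE 0.14, adjusted p = 1.32e-06). Aldoa, the aldolase of muscle and of most proliferating cells, ran the other way at -0.29 without passing (adjusted p = 0.104), with 12.16, 12.37, 11.73 and 12.00 on the flight arrays and 12.48 and 12.22 on the unit arrays.

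Of the phosphofructokinase subunits, which set the pace of the pathway, only Pfkp passed. Pfkp, the platelet-type subunit, had 10.10, 9.98, 9.39 and 9.31 on the flight arrays and 9.63 and 8.52 on the unit arrays, and flight lay above the unit within each medium. It rose by 0.62 (SE 0.16, adjusted p = 0.0164). Pfkm, the muscle-type subunit, had 9.48, 8.92, 10.00 and 9.77 on the flight arrays and 9.11 and 9.10 on the unit arrays. Its difference of 0.44 did not pass (adjusted p = 0.135), and the osteoinductive centrifuge array lay below both units. Pfkl, the liver-type subunit, had a difference of -0.26 (adjusted p = 0.138). Tpi1, which interconverts the triose phosphates, fell by 0.33 (SE 0.10, adjusted p = 0.0432), with 11.48, 11.40, 10.96 and 11.13 on the flight arrays and 11.79 and 11.35 on the unit arrays. The rises of Aldoc and Pfkp and the higher Pfkm values were seen on the same arrays as the higher neuron and muscle marker sums given above, and the part of those tissues in them was not tested.

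None of the lower enzymes, which recover ATP, passed. Pgk1, Pgam1, Eno2 and Pkm had differences from -0.23 (Pgam1) to 0.11 (Eno2), where Eno2 is the neuron-type enolase and Pkm makes pyruvate. Pgam1, phosphoglycerate mutase, had 10.89, 11.08, 10.60 and 10.83 on the flight arrays and 11.23 and 10.94 on the unit arrays, below the unit in each medium. The Pgk1 and Pgam1 probe sets each came with a copy of identical values, so signal from copies of these genes could not be told apart. In the lactate branch, Pdk1 had 8.72, 8.66, 8.65 and 8.88 on the flight arrays and 9.09 and 9.01 on the unit arrays, all flight values below both units. Its difference of -0.32 did not pass (adjusted p = 0.0651). Ldha, which makes lactate, differed by -0.11 and Slc16a3, which exports it, by 0.25, neither passing.

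The bifunctional enzymes that make and break the allosteric activator of phosphofructokinase gave 1 rise. Pfkfb3, the form most biased towards making the activator, had 7.95, 7.78, 7.94 and 7.73 on the flight arrays and 6.96 and 7.20 on the unit arrays. All flight values lay above both units, and the difference was 0.78 (SE 0.12, adjusted p = 0.00106). Pfkfb4 had a difference of 0.23 and did not pass, with no overlap between the 4 flight arrays and the 2 unit arrays.

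In oxygen sensing none of 4 genes passed. Hif1a, the regulated subunit itself, differed by -0.14, Egln1, the main prolyl hydroxylase, by -0.13, Egln3, its hypoxia-induced relative, by -0.04 and Kdm3a, an oxygen-dependent histone demethylase, by -0.29. The Kdm3a values were 9.52, 9.53, 9.04 and 9.38 on the flight arrays and 9.72 and 9.59 on the unit arrays, with no overlap. Of the mitochondrial genes, the mitophagy receptors Bnip3 and Bnip3l, the respiratory-chain factor Higd1a and the mitochondrial adenylate kinase Ak4, none passed. Their differences ran from -0.19 (Ak4) to 0.22 (Higd1a). Higd1a had 8.11, 8.18, 7.66 and 7.84 on the flight arrays and 7.79 and 7.65 on the unit arrays. The dimmer probe sets gave log2 differences of -0.60 for Ak4, 0.31 for Bnip3 and 0.04 for Higd1a. With the mean of probe sets Ak4 fell in limma (-0.39, adjusted p = 0.0169).

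Of the secreted factors, Stc2, a stanniocalcin, had 8.99, 9.07, 9.10 and 9.32 on the flight arrays and 9.55 and 9.59 on the unit arrays. It fell by 0.45 (SE 0.11, adjusted p = 0.014) with no overlap. Adm, the vasodilator peptide adrenomedullin, had 9.00, 9.27, 8.81 and 9.42 on the flight arrays and 9.65 and 9.54 on the unit arrays. That difference of -0.47 had the larger error and did not pass (SE 0.17, adjusted p = 0.0749). Vegfa, the chief blood vessel growth signal, differed by -0.18.

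P4ha1, a catalytic subunit of the enzyme that hydroxylates collagen prolines, had 10.74, 10.90, 10.25 and 10.56 on the flight arrays and 11.10 and 10.99 on the unit arrays. It fell by 0.44 (SE 0.12, adjusted p = 0.0291), below the units on every flight array. Its partner isoform P4ha2 had a difference of -0.36 and did not pass (adjusted p = 0.0673). Ndrg1, a stress-responsive gene, had 10.37, 10.45, 9.97 and 10.23 on the flight arrays and 10.81 and 10.43 on the unit arrays, a difference of -0.36 (adjusted p = 0.0803). Ddit4, an mTOR inhibitor, Mxi1, a MYC antagonist, and Ankrd37, a HIF target of little-known function, differed by -0.22, -0.01 and -0.15. Car9, below the filter, had 6.91, 7.17, 6.93 and 6.86 on the flight arrays and 7.22 and 7.15 on the unit arrays. Car12, also untested, had 6.88, 7.13, 7.17 and 6.94 on the flight arrays and 6.80 and 6.63 on the unit arrays.

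How far these calls rest on single arrays varied. Aldoc passed in every alternative run. Pfkfb3 passed in all but 1, with an adjusted p of 0.0668 without the osteoinductive unit array. Without the growth centrifuge array the count of 7 genes became 13, while that of all tested genes went from 2432 to 4514. With either unit array left out, 1 unit array remained. Most of the 7 calls were then lost, and calls over all tested genes fell too. Tpi1 lost its call in most of the alternatives. With the 2 flight conditions kept apart, 4 genes rose and 11 fell in microgravity against the units, where 10.6% of all tested genes rose and 18.1% fell. On the centrifuge only Aldoc and Pfkfb3 passed against the units, both higher, where 6.34% of all tested genes rose and 3.78% fell. Adm differed from the units by -0.69 in microgravity (adjusted p = 0.00593) and by -0.26 on the centrifuge (adjusted p = 0.345), and Hk2 by -0.85 (adjusted p = 0.00336) and -0.50 (adjusted p = 0.086) in that order. A call in 1 flight condition and not in the other does not show that they differ. That difference is tested next.

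Microgravity against the onboard centrifuge compares the flight conditions with each other, and no gene passed. Each had 1 array per medium, so gravity cannot be told apart from other differences between those arrays. The count was 0 of 35 where 0% of the 13205 genes passed by limma, although 1507 genes had an unadjusted p under 0.05 and the smallest adjusted p was 0.187. Of the 35, 25 differences were negative, 14 positive and 21 negative under quantile normalization, and the median was -0.11 against -0.05 for all genes. In both media 18 genes lay lower and 6 higher in microgravity, against 30.4% and 18.2% of all tested genes. Both microgravity arrays lay above both centrifuge arrays for 3 genes and below them for 2, against 9.63% and 16.3% of all tested genes. Adm had the largest size of difference: 9.00 in osteoinductive and 8.81 in growth medium in microgravity, against 9.27 and 9.42 on the centrifuge. Its difference was -0.43 (SE 0.15, adjusted p = 0.338). For Egln3 microgravity gave 10.23 in osteoinductive and 8.57 in growth medium and the centrifuge 10.58 and 9.04, a difference of -0.41 (SE 0.19, adjusted p = 0.447). Hk2 was not uniform, with microgravity minus centrifuge at 0.09 in osteoinductive and -0.79 in growth medium. Pfkm was higher in microgravity by 0.39 (adjusted p = 0.456). It had 9.48 in osteoinductive and 10.00 in growth medium in microgravity, and 8.92 and 9.77 on the centrifuge. The 10 lung and 10 endothelial markers summed highest on the osteoinductive microgravity array, where Pfkm was not at its highest. The part of those tissues in these differences was not tested.

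Ground units against laboratory dishes compare flight-type hardware with open culture, with no flight involved. Most of the genes had lower values in the units than in the dishes, but no gene passed. The count was 0 of 35 where 0% of all tested genes passed by limma, with 179 genes at an unadjusted p under 0.05 and every adjusted p at 1. Of the 35 differences 32 were negative, with a median of -0.18 against -0.04 for all genes, and 30 under quantile normalization. In both media 27 of the 35 lay lower in the units and 1 higher, against 38.9% and 18.4% of all tested genes. Both unit arrays lay below both dish arrays for 11 genes and above them for 1, against 19.6% and 10.6% of all tested genes.

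Bnip3 gave the largest difference. It measured 10.59 in osteoinductive and 9.48 in growth medium in the units, against 11.34 and 10.21 in the dishes. The unit was lower within each medium by nearly the same amount, -0.75 in osteoinductive and -0.73 in growth medium, and the fitted difference was -0.74 (SE 0.13, unadjusted p = 0.000113, adjusted p = 1). The dimmer Bnip3 probe set gave -0.60. Egln3 had 10.07 and 9.22 in the units, against 10.56 and 9.74 in the dishes, a difference of -0.50 (SE 0.23).

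Adm, with 9.65 and 9.54 in the units and 10.37 and 9.81 in the dishes, differed by -0.49, more in osteoinductive (-0.72) than in growth medium (-0.27). Egln1 had 9.87 and 9.26 in the units and 10.41 and 9.59 in the dishes, a difference of -0.43, and Pdk1 had 9.09 and 9.01 in the units and 9.54 and 9.39 in the dishes, a difference of -0.42. Slc2a1, with 11.79 and 11.48 in the units and 12.26 and 11.71 in the dishes, followed at -0.36, and P4ha2, with 9.34 and 8.81 in the units and 9.74 and 9.02 in the dishes, at -0.31. Among glycolytic enzymes, Pgk1 had 12.35 and 12.20 in the units and 12.65 and 12.44 in the dishes (-0.27), and Pfkl had 10.41 and 10.02 in the units and 10.76 and 10.15 in the dishes (-0.24). Mxi1 had 8.60 and 8.53 in the units and 8.94 and 8.73 in the dishes (-0.26). The 3 genes with positive differences were Aldoc at 0.20, Pfkfb3 at 0.02 and Stc2 at 0.01.

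**Figure D2:**
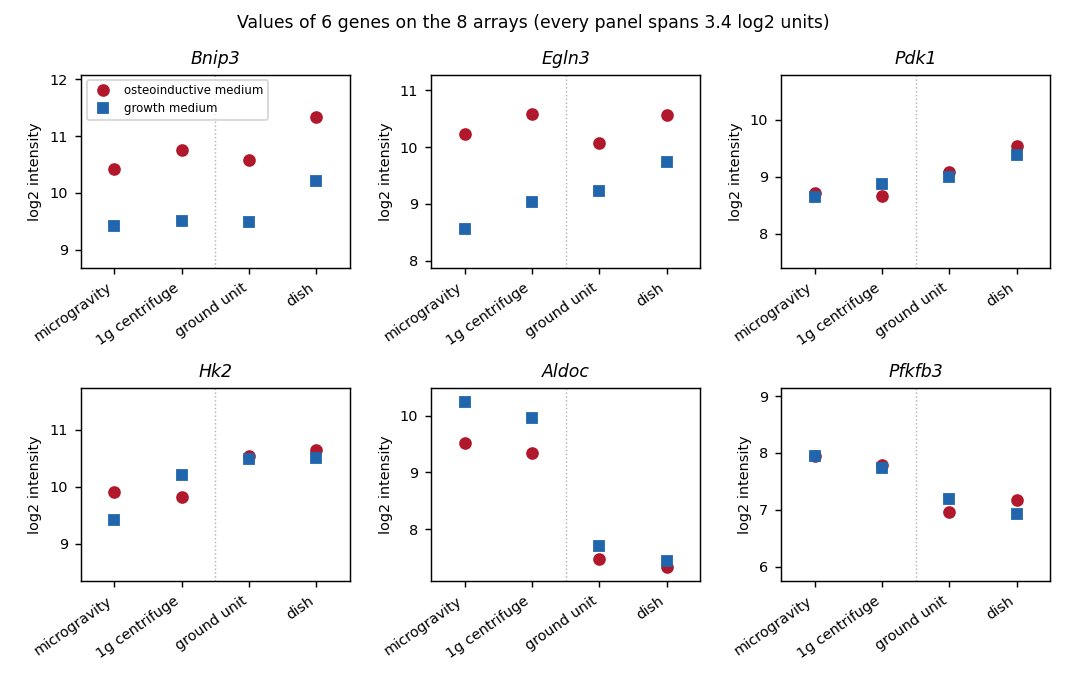
Log2 intensity of 6 genes on the 8 arrays, 1 panel per gene, with microgravity, 1g centrifuge, ground unit and dish from left to right, circles for osteoinductive and squares for growth medium. Bnip3 and Egln3 are higher in osteoinductive medium, Bnip3 and Pdk1 are highest in the dish, Hk2 is lower on flight than on unit arrays, and Aldoc and Pfkfb3 are higher on the flight arrays.

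Flight against the dishes adds both contrasts and shares arrays with each, so it is no independent evidence. Of the 35 genes 19 fell and 2 rose, against 15.5% of all tested genes lower and 9.07% higher. The median difference was -0.40, against -0.12 for all genes. Under quantile normalization 12 fell and 3 rose, with a median of -0.26. Among all tested genes the share of calls that were higher was 36.9% in the main fit and 52.3% under quantile normalization, so the general tilt towards lower values in this contrast moved with the scaling. With either dish array left out, only the other remained on the dish side. Most of the 21 calls were then lost. Calls over all tested genes fell too, so the loss was not particular to the 35 genes. Whichever array was left out, the median difference of the 35 genes lay between -0.46 and -0.34. All flight arrays lay below both dish arrays for 15 genes and above them for 3, against 24.9% and 14.9% of all tested genes.

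The deepest fall was in Adm, with 9.00, 9.27, 8.81 and 9.42 on the flight arrays and 10.37 and 9.81 on the dish arrays, 1.95-fold lower in flight (-0.96, SE 0.17, adjusted p = 0.00236). Bnip3 had 10.42, 10.76, 9.42 and 9.51 on the flight arrays and 11.34 and 10.21 on the dish arrays and fell by 0.75 (SE 0.11, adjusted p = 0.000813). The dimmer Bnip3 probe set gave -0.29. Hk2, at 10.66 and 10.52 on the dish arrays against the flight values above, fell by 0.74 (adjusted p = 0.0108), and Pdk1, below both dishes on every flight array, by 0.73 (adjusted p = 0.000731).

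P4ha2, with 9.18, 9.23, 8.10 and 8.35 on the flight arrays and 9.74 and 9.02 on the dish arrays, fell by 0.67 (adjusted p = 0.00336). Egln1, with 9.77, 9.84, 9.02 and 9.13 on the flight arrays and 10.41 and 9.59 on the dish arrays, fell by 0.56 (adjusted p = 0.00275). Ndrg1 had 10.37, 10.45, 9.97 and 10.23 on the flight arrays and 11.23 and 10.38 on the dish arrays and fell by 0.55 (adjusted p = 0.0148). Within each medium every flight value of these 3 genes lay below the dish value. Without the osteoinductive dish array the Ndrg1 difference was -0.29 and did not pass (adjusted p = 0.343).

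The other 12 falls were those of P4ha1, Kdm3a, Pfkl, Pgk1, Tpi1, Ak4, Stc2, Pgam1, Aldoa, Ldha, Slc2a1 and Ankrd37, between -0.53 (P4ha1) and -0.33 (Ankrd37). They took in glucose entry, the aldolase and triose phosphate steps, the ATP-yielding kinase Pgk1 and the lactate dehydrogenase Ldha. Pgk1 had 12.14, 12.26, 11.75 and 12.07 on the flight arrays and 12.65 and 12.44 on the dish arrays, without overlap (-0.49, adjusted p = 0.0124). Ldha had 11.78, 11.95, 11.46 and 11.74 on the flight arrays and 12.28 and 11.99 on the dish arrays, also without overlap (-0.40, adjusted p = 0.0258). Slc2a1 had 11.78, 11.88, 11.13 and 11.56 on the flight arrays and 12.26 and 11.71 on the dish arrays (-0.40, adjusted p = 0.0415). Its osteoinductive flight values lay above the growth dish, so the arrays overlapped across media but not within them. The Slc2a1 call was lost with no filter on dim genes (adjusted p = 0.0555), without a term for medium (adjusted p = 0.258), under quantile normalization (-0.23, adjusted p = 0.155) and when any array but the growth centrifuge was left out (adjusted p from 0.0592 to 0.321).

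Pfkl had 10.30, 10.27, 9.48 and 9.78 on the flight arrays and 10.76 and 10.15 on the dish arrays (-0.50). Ak4 had 8.14, 8.02, 8.06 and 7.90 on the flight arrays and 8.56 and 8.39 on the dish arrays (-0.45). Ankrd37 had 8.38, 8.40, 8.05 and 7.98 on the flight arrays and 8.76 and 8.30 on the dish arrays. Within each medium flight lay below the dish for all 3 genes. For the remaining falls the flight values stand above, and the dish arrays had 11.34 and 10.95 for P4ha1, 10.04 and 9.74 for Kdm3a, 11.91 and 11.53 for Tpi1, 9.42 and 9.70 for Stc2, 11.38 and 11.21 for Pgam1, and 12.67 and 12.33 for Aldoa. Each of these dish values exceeded both flight values of its medium. Aldoc, at 7.34 and 7.44 on the dish arrays, was 5.18-fold higher in flight (2.37, adjusted p = 6.57e-07), and Pfkfb3, at 7.18 and 6.94 on the dish arrays, was higher by 0.80 (adjusted p = 0.000891). Egln3, whose flight values spanned 8.57 to 10.58, differed by -0.54 and did not pass (adjusted p = 0.0613).

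For the 19 genes that fell, the difference between flight and dish is the sum of flight minus unit and unit minus dish. The unit minus dish part was the larger for 9 of them, and for 5.08% of the 2048 genes that fell in all. No test compared the 2 parts, which share the unit arrays, and no gene passed unit minus dish. With the brightest probe set, 99.3% of the Bnip3 difference lay between unit and dish. The dimmer Bnip3 probe set gave 0.31 for flight minus unit and -0.60 for unit minus dish, so that share did not hold for it. In Slc2a1 the share was 89.1%, in Egln1 77.0% and in Ldha 71.5%. In Hk2 the share was 9.38% and in P4ha1 18.0%. Stc2 had -2.18%, its unit lying level with the dish. Adm had 51.0%. Only 4 of the 19, Hk2, Stc2, P4ha1 and Tpi1, had also fallen against the units.

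**Figure D3:**
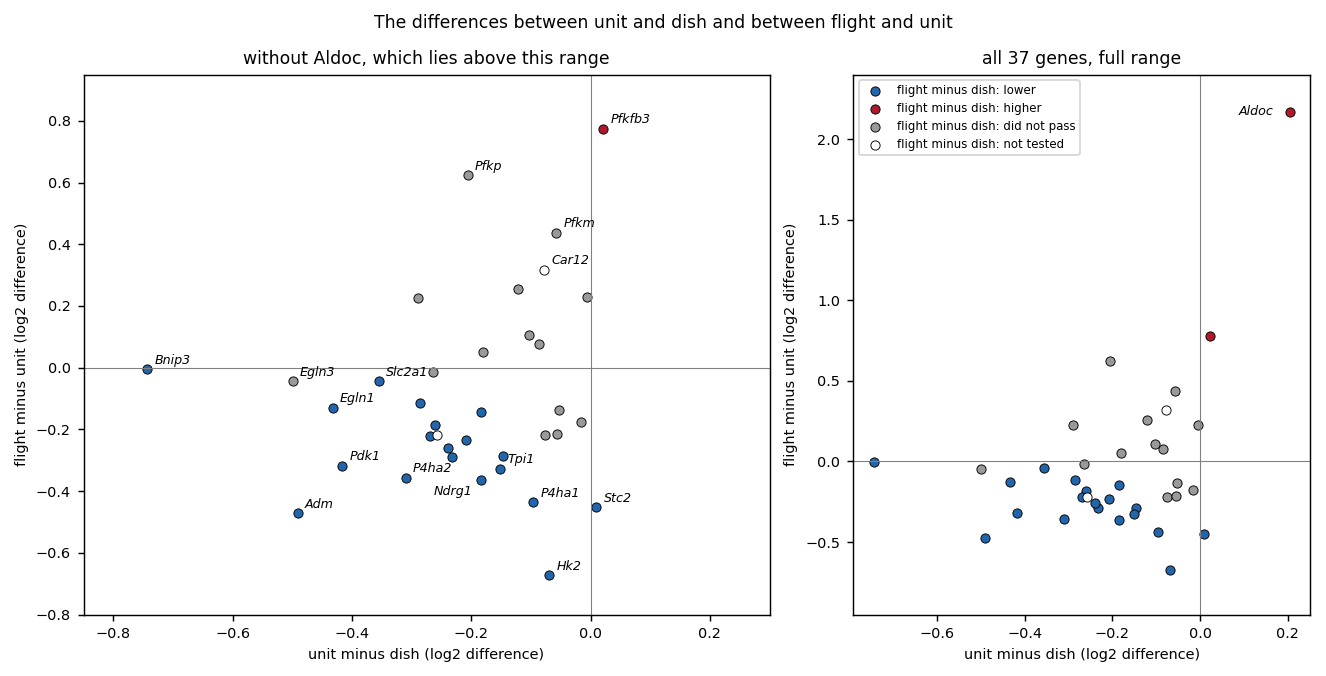
Log2 difference flight minus unit (vertical) against unit minus dish (horizontal) for each gene, coloured by its call in flight minus dish, without Aldoc on the left and with all 37 genes on the right. Bnip3 lies far left at a height near 0, Hk2 lies low near the vertical axis, and Aldoc sits at 2.17 on the vertical axis. The 2 axes share the unit arrays.

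Osteoinductive against growth medium asks how the bone-inducing medium bore on the same genes. Here the direction was mostly upward. Of the 35 genes 11 rose and 1 fell, against 5.35% of all tested genes higher and 6.02% lower. The median difference was 0.23 against -0.02 for all genes, and 31 of 35 differences were positive, also under quantile normalization. In each of the 4 conditions 20 genes were higher in osteoinductive medium and 2 lower, against 15.8% and 20.3% of all tested genes. All 4 osteoinductive arrays lay above all 4 growth arrays for 9 genes and below them for 0, against 6.16% and 3.57% of all tested genes. For the medium, values are given as microgravity, centrifuge, unit and dish.

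In oxygen sensing 2 of 4 genes rose. Egln3 had 10.23, 10.58, 10.07 and 10.56 in osteoinductive medium and 8.57, 9.04, 9.22 and 9.74 in growth medium, without overlap. It was 2.33-fold higher (log2 difference 1.22, SE 0.16, adjusted p = 0.000533). Egln1 had 9.77, 9.84, 9.87 and 10.41 in osteoinductive medium and 9.02, 9.13, 9.26 and 9.59 in growth medium, also without overlap, and rose by 0.72 (SE 0.08, adjusted p = 0.000225). Kdm3a and Hif1a did not pass, at 0.26 and -0.06.

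Bnip3 had 10.42, 10.76, 10.59 and 11.34 in osteoinductive medium and 9.42, 9.51, 9.48 and 10.21 in growth medium. All 4 osteoinductive values exceeded all 4 growth values, a 2.17-fold rise (1.12, SE 0.09, adjusted p = 1.75e-05). The other mitochondrial genes did not pass, with Higd1a at 0.29 (adjusted p = 0.0545), Ak4 at 0.14 and Bnip3l at 0.04. The dimmer probe sets gave 0.70 for Bnip3, 0.54 for Higd1a, 0.26 for Ak4 and 0.00 for Bnip3l. With the mean of probe sets Higd1a passed in limma (0.42, adjusted p = 0.0125).

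Of the phosphofructokinase subunits, Pfkp and Pfkl rose with the medium. Pfkp had 10.10, 9.98, 9.63 and 10.03 in osteoinductive medium and 9.39, 9.31, 8.52 and 8.52 in growth medium, 2.00-fold higher without overlap (1.00, SE 0.13, adjusted p = 0.000415). Pfkl had 10.30, 10.27, 10.41 and 10.76 in osteoinductive medium and 9.48, 9.78, 10.02 and 10.15 in growth medium and rose by 0.58 (SE 0.10, adjusted p = 0.00258). Pfkm was lower by 0.32 and did not pass (adjusted p = 0.239), its medium differences being -0.52 in microgravity, -0.85 on the centrifuge, 0.02 in the units and 0.07 in the dishes.

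Slc2a1 rose by 0.46 (adjusted p = 0.0146), with 11.78, 11.88, 11.79 and 12.26 in osteoinductive medium and 11.13, 11.56, 11.48 and 11.71 in growth medium. Tpi1 had 11.48, 11.40, 11.79 and 11.91 in osteoinductive medium and 10.96, 11.13, 11.35 and 11.53 in growth medium and rose by 0.40 (adjusted p = 0.00965). Aldoa had 12.16, 12.37, 12.48 and 12.67 in osteoinductive medium and 11.73, 12.00, 12.22 and 12.33 in growth medium and rose by 0.35 (adjusted p = 0.0344). Both were higher in osteoinductive medium under each condition. The Aldoa call was lost with no filter on dim genes (adjusted p = 0.052) and when either unit, either dish, the osteoinductive centrifuge or the osteoinductive microgravity array was left out (adjusted p from 0.0678 to 0.13). The Slc2a1 call was lost without either dish or the osteoinductive centrifuge array (adjusted p from 0.0643 to 0.0731). The lower enzymes Pgk1, Pgam1, Eno2 and Pkm did not pass, with differences from 0.04 (Eno2) to 0.25 (Pgam1), and neither did Ldha at 0.28 (adjusted p = 0.0689). Under quantile normalization Pgk1, Pgam1, Ldha, Kdm3a and P4ha1 did rise with the medium in limma (adjusted p from 0.0193 to 0.0409). There 899 of all 13208 genes rose and 958 fell, against 707 and 795 in the main fit. Hk1, Hk2, Slc16a3, Pdk1, Pfkfb3 and Pfkfb4 lay between 0.02 and 0.07, while the dimmer Hk1 probe set gave 0.40. Aldoc fell by 0.41 (adjusted p = 0.0435), with 9.51, 9.35, 7.48 and 7.34 in osteoinductive medium and 10.23, 9.96, 7.70 and 7.44 in growth medium. Aldoc's medium difference was -0.72 in microgravity and -0.10 in the dishes. Of the 10 tested neuron markers 4 fell with the medium and 0 rose, where 6.02% of all tested genes fell and 5.35% rose. The part of these markers in the Aldoc value was not tested. The Aldoc call ended under quantile normalization (adjusted p = 0.065) and with no filter on dim genes (adjusted p = 0.0657). With 32 added before log2 it ended too (adjusted p = 0.0512). It was also lost when either centrifuge or either microgravity array was left out (adjusted p from 0.0674 to 0.163), and when either unit array was.

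P4ha2, of the collagen prolyl hydroxylase, had 9.18, 9.23, 9.34 and 9.74 in osteoinductive medium and 8.10, 8.35, 8.81 and 9.02 in growth medium. It rose by 0.80 (SE 0.10, adjusted p = 0.000423) without overlap. P4ha1, at 0.33, did not pass (adjusted p = 0.0539). Ankrd37 rose by 0.43 (adjusted p = 0.00547), with 8.38, 8.40, 8.61 and 8.76 in osteoinductive medium and 8.05, 7.98, 8.08 and 8.30 in growth medium, and Ndrg1 rose by 0.47 (adjusted p = 0.0183), with 10.37, 10.45, 10.81 and 11.23 in osteoinductive medium and 9.97, 10.23, 10.43 and 10.38 in growth medium. The Ndrg1 call was lost without either dish or the osteoinductive centrifuge array (adjusted p from 0.0581 to 0.119). Ddit4 and Mxi1 did not pass, at 0.15 and 0.12. Among secreted factors, Vegfa had a difference of 0.26 with no overlap (adjusted p = 0.101), Adm 0.18 and Stc2 -0.17, none passing. Car9 and Car12 differed by 0.17 and 0.14.

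**Figure D4:**
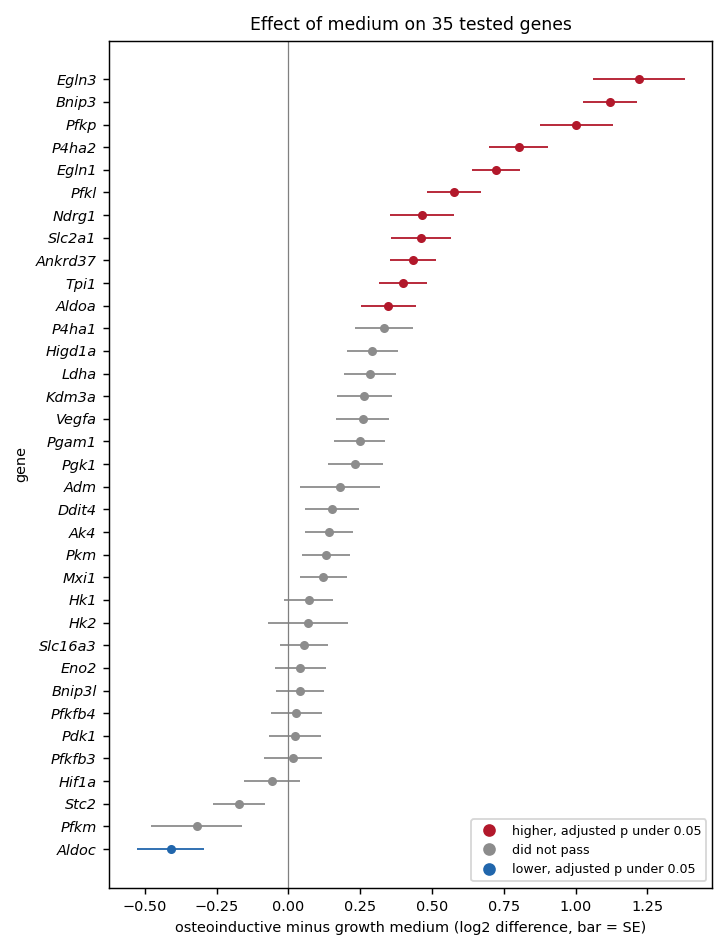
Log2 difference between osteoinductive and growth medium for the 35 tested genes, in order of size, with bars of 1 SE. Egln3, Bnip3 and Pfkp stand at 1.00 or above, 11 genes passed as higher, and Aldoc passed as lower.

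Whether the medium acted differently in flight and on the ground was tested by an interaction, and no gene passed. The count was 0 of 35 where 0% of all tested genes passed by limma, with 525 at an unadjusted p under 0.05 and the smallest adjusted p at 0.647. Pfkp had an interaction of -0.61 (SE 0.20, unadjusted p = 0.00876), its medium difference being 0.71 in microgravity and 0.68 on the centrifuge, against 1.11 in the units and 1.51 in the dishes. Pfkm had -0.73 (SE 0.23, unadjusted p = 0.00882) and Aldoc -0.50 (SE 0.20). Egln3 had 0.77 (SE 0.31, unadjusted p = 0.0278), with medium differences of 1.66 and 1.55 in flight and of 0.85 and 0.82 on the ground. Each of the 4 had an adjusted p of 0.999.

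The neighbouring pathways give a frame for these values. For flight against the units, 8.63% of all tested genes rose and 9.78% fell, with a median of -0.06. In flight against the units, 3 of 6 pentose phosphate genes fell and none rose, with a median of -0.33. Pgd, which yields NADPH, fell by 0.85 (adjusted p = 0.00672), Taldo1, transaldolase, by 0.66 and Pgls, a lactonase, by 0.36. Among 18 other glycolysis genes 4 rose and 1 fell, with a median of 0.09. Eno3, the muscle enolase, rose by 0.86, Slc2a3, the neuron-type glucose transporter, by 0.80 and Ldhb, the heart-type lactate dehydrogenase, by 0.70. These forms are abundant in muscle, neurons or heart. Muscle and neuron marker sums were higher on the same arrays, and the part of those tissues in these rises was not tested. Eno3 is itself among the 16 muscle markers, so its value is part of the muscle sum. Of 8 glycogen genes 1 rose, Pygm, the muscle glycogen phosphorylase, by 0.72, and 3 fell, among them Gbe1, the branching enzyme, by 0.55. Phkb, a phosphorylase kinase subunit, fell by 0.52.

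Pyruvate oxidation and the tricarboxylic acid cycle gave 2 rises and 2 falls among 21 genes, with Suclg2, a succinyl-CoA ligase subunit, falling by 0.62. Pdk2, a pyruvate dehydrogenase kinase, rose by 0.48, and Pdp1, the opposing phosphatase, by 0.45. Of 16 genes of the HIF machinery 2 rose and 1 fell. Epas1, the HIF alpha subunit abundant in endothelium, rose by 0.96 (SE 0.31, adjusted p = 0.0487), Arnt2, a neuron-enriched partner, by 0.67, and Siah2, a ubiquitin ligase for the hydroxylases, fell by 0.40. Other hypoxia-induced genes, 28 tested, gave 2 rises and 3 falls and a median of -0.08. The counts among these 21, 16 and 28 genes were near the shares of all tested genes, 8.63% higher and 9.78% lower. Hmox1, heme oxygenase, fell by 1.01, Tfrc, the transferrin receptor, by 0.96, and Nrn1, a neuronal surface protein, rose by 0.91.

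The 28 other hypoxia-induced genes were also counted in the other contrasts. In units against dishes 24 of 28 were negative with a median of -0.16 and 0 called, and 19 of 21 pyruvate and tricarboxylic acid cycle genes were negative too. Against the dishes, 9 of the 28 fell in flight and 1 rose, where 15.5% of all tested genes fell and 9.07% rose, with a median of -0.22, led by Hmox1 at -0.86, Tfrc at -0.78 and Bhlhe40, a HIF-induced repressor, at -0.72. In osteoinductive medium 8 of the 28 rose and 2 fell, where 5.35% of all tested genes rose and 6.02% fell, with a median of 0.18. Tmem45a rose by 1.62, Lox, which crosslinks collagen, rose by 1.10, and Hmox1 fell by 0.85. In the HIF machinery Hif3a rose by 1.04 (adjusted p = 0.001), Ep300, a coactivator, by 0.37, and Eloc, an elongin of the VHL complex, fell by 0.35. Of the 6 pentose phosphate genes Pgd fell by 0.62 and Taldo1 by 0.49, while 0 of 18 other glycolysis genes and 0 of 8 glycogen genes passed with the medium.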

How the data were processed

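Total RNA of 8 samples was hybridised to oligonucleotide arrays, 1 array per sample. The authors deposited linear intensities for every probe set. RMA and GCRMA are listed, per the submitters' processing notes, with no word on which of them gave these values. Array medians lay between 180.92 and 196.423. Samples were grouped by title. The centrifuge samples carry a gravity label of microgravity, and the osteoinductive centrifuge sample is once described as being in growth medium, so a wrong title would alter every comparison that uses those arrays.

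Intensities were taken to log2. Of 35557 probe sets, the 21789 that named 1 gene were used, 21698 of whose identifiers matched the RefSeq table of GRCm38.p6. The brightest probe set stood for a gene. Genes were tested where their mean passed the 40th percentile over probe sets (7.14 on the log2 scale).

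Differences were tested with limma 3.58.1 (lmFit and eBayes) in R 4.3.3, two-sided, with Benjamini-Hochberg adjustment within each comparison at 0.05. Platform (flight, unit, dish) and medium shared 1 fit, microgravity against centrifuge used condition plus medium, and the interaction used flight by medium. The scripts were tested on simulated data. No batch is named in the labels, and the number of arrays limits precision.

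The 40 genes, the 6 lists of related genes and the 7 lists of cell type markers were chosen with earlier results of these data known. Per-array values are given for called genes, those differing by 0.5 or more and the largest difference of a role, and up to 3 called genes with the largest differences are named from each list of related genes. The alternatives comprised no filter, the 60th percentile as filter, quantile normalization, 32 added before log2, the mean of probe sets, another model, no medium term, and each array left out.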

Additional observations from a re-analysis of the deposited data

How the results depend on the processing

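No paired analysis was possible because the labels carry no replicate numbers that link arrays. Medium was a term in the main fit, and the fit with condition and medium, which pairs the media within each condition, also passed Higd1a (adjusted p = 0.0378), Ldha (adjusted p = 0.0327) and P4ha1 (adjusted p = 0.0249) in osteoinductive minus growth. No value changed sign among the called results under any alternative run. Calls of the 35 genes were unchanged in all alternatives for 20 genes in flight minus unit, 10 in flight minus dish and 25 in osteoinductive minus growth, and for all 35 in the 3 comparisons with no call. Without a term for medium, 2 of the 35 genes passed in flight minus unit and 6 in flight minus dish, with 1167 and 1246 of all genes. Under quantile normalization the median of the 35 genes in flight minus dish was -0.26 and 2127 of all genes passed, of which 52.3% were higher, against 36.9% of 3246. With the stricter filter 1510 genes passed in flight minus unit (31.5% higher, against 46.9% of 2432) and 2144 in flight minus dish (20.8% higher). With no filter 48.5% of the calls in flight minus dish were higher, and the cause was not tested. With flight taken as microgravity only, 15 of the 35 genes and 3789 of all genes passed against the units, and with flight taken as the centrifuge only, 2 and 1336; both alternatives were chosen after seeing the data.

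Leaving out each array in turn gave 1 to 13 of the 35 genes in flight minus unit (lowest without the osteoinductive unit, highest without the growth centrifuge), 6 to 24 in flight minus dish, 8 to 14 in osteoinductive minus growth and 0 in the other 3 comparisons. Over all genes the ranges were 732 to 4514 for flight minus unit, 692 to 6030 for flight minus dish, 733 to 1963 for osteoinductive minus growth, 0 to 47 for microgravity minus centrifuge, 0 to 15 for the interaction and 0 for unit minus dish. The median of the 35 genes ran from -0.21 to -0.11 in flight minus unit, -0.46 to -0.34 in flight minus dish, 0.18 to 0.29 in osteoinductive minus growth, -0.23 to -0.17 in unit minus dish, -0.13 to -0.04 in microgravity minus centrifuge and -0.16 to 0.10 in the interaction. Unit minus dish rests on 2 arrays a side and gave no adjusted p below 1, or below 0.441 in the fit with condition and medium.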
